A study of Mus musculus with 22 samples.

Results

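The angiotensin receptors and the genes that make and trim their peptide were followed in MEFs, fibroblasts cultured directly from mouse embryos. The members were 5 genes, Agtr2, Agtr1a, Agtrap, Ace and Agt, of the 18193 genes that the platform annotation named. They were represented by 7 probe sets, groups of array probes designed against a transcript, of the 34945 that the annotation assigned to exactly 1 gene. Agtr2 was included because its level was higher in cells with the oncogene, so its differences with the oncogene are given as a description, with no test. The other 4 genes complete the system around it. Earlier results of these data were known when they were listed.

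Angiotensinogen, the product of Agt, is cut by renin to angiotensin I, from which the angiotensin-converting enzyme Ace makes angiotensin II. In mice the type 1 receptor, encoded mainly by Agtr1a, signals through Gq proteins and drives vasoconstriction and growth responses. The type 2 receptor Agtr2 is abundant in fetal mesenchyme, declines after birth and often opposes the type 1 receptor. Agtrap binds the type 1 receptor and promotes its removal from the cell surface.

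RNA from 22 samples was hybridised to 1 Affymetrix mouse array each, 7 days after adenoviral infection. The 7 double arrays came from MEFs in which Cre both switched on a mutant oncogene and removed Wt1, and the 5 oncogene arrays from MEFs in which Cre switched on the oncogene alone from a stop-cassette allele (LSL). The 5 Wt1-null arrays came from Wt1f/f MEFs given Cre, or were labelled only as Wt1-null fibroblasts. The 5 control arrays came from MEFs labelled wild type and given a GFP virus. Wt1 is a zinc-finger transcription factor. By the design text all double, oncogene and Wt1-null cells received the Cre virus, so virus and genotype cannot be told apart in a comparison with control. Cre acted only in infected cells, and the labels give no share of cells infected. Nothing in them shows that replicates were separate embryos or cultures, and p-values therefore cover only the spread seen here, which may be technical. The oncogene replicates are numbered 1, 3, 4, 5 and 6, after the labels.

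Values are log2 levels and differences are log2 differences, where 1 is a doubling. A difference was called where its limma p, adjusted by the Benjamini-Hochberg method over all 45037 probe sets tested, was below 0.05. Array medians ran from 6.23 to 6.33. The Wt1 probe set lay between 4.16 and 4.77 in double arrays, 4.51 and 4.67 in oncogene arrays, 4.34 and 4.72 in Wt1-null arrays and 4.22 and 4.46 in control arrays. Probe sets of 3 Y-linked genes read 3.65 to 5.06 in the 9 arrays with high Xist, so Wt1 read at background throughout and could not check the labels. Of 10 fibroblast markers, 9 had means above the 75th percentile of all probe sets, as did 4 of 7 smooth muscle and pericyte markers and 1 of 3 adipocyte markers. None of 6 endothelial, 6 macrophage, 4 epithelial, 4 hepatocyte, 3 kidney and adrenal or 3 neural markers did. Wt1-null replicate 2 stood apart from its group: over all probe sets its closest array was double replicate 2 (r = 0.998). Results that rest on it are given with and without it. Double replicate 4 and oncogene replicate 4 also stood apart, with the lowest mean correlations with the other arrays (r = 0.94 and r = 0.96). Wt1-null replicates 3 and 4 were each other's closest array, also at r = 0.998. Counting them as separate arrays, as the tests do, may understate the spread of that group.

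Agtr2, the type 2 receptor gene on chromosome X, had high levels in both groups with the oncogene. In double arrays the level of probe set 1415832_at ran from 10.62 to 12.95, with a median of 12.04. In oncogene arrays it was 13.30, 12.09, 11.94, 11.56 and 11.22. In Wt1-null arrays it was 8.19, 13.51, 6.90, 7.19 and 6.60, and in control arrays 8.20, 5.33, 8.45, 7.61 and 9.65. The double and oncogene arrays all lay above every control array, and above every Wt1-null array except replicate 2, which had the highest level of all 22. Of all probe sets, 2.50% had every oncogene array above every control array, and 1.83% every double array above every control array.

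**Figure D1:**
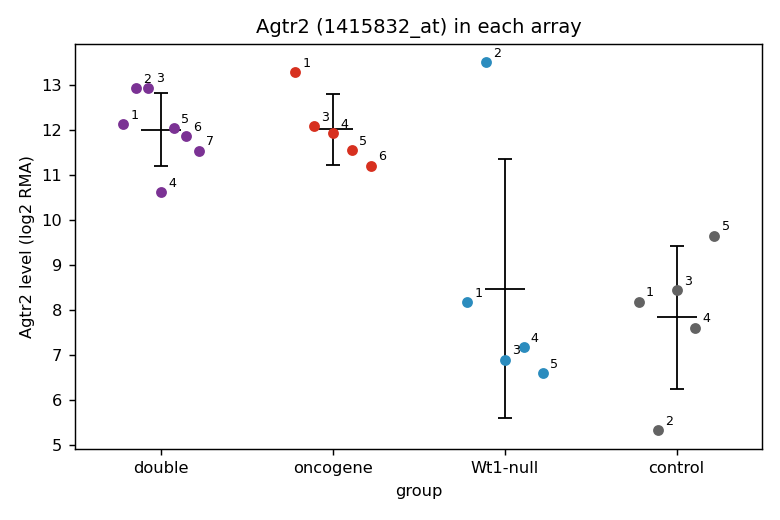
Agtr2 level (log2 RMA) in each array, by group, with replicate numbers beside the points and bars for the group mean and SD. Double and oncogene arrays sit between 10.62 and 13.30, control arrays between 5.33 and 9.65, and Wt1-null replicate 2 at 13.51.

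Group means were 12.01 ± 0.81 in double arrays (SD, n = 7) and 12.02 ± 0.79 in oncogene arrays (SD, n = 5). They were 8.48 ± 2.88 in Wt1-null arrays and 7.85 ± 1.59 in control arrays (SD, n = 5 each). Without Wt1-null replicate 2 that group averaged 7.22 ± 0.69. The order was thus oncogene and double, then Wt1-null and control, and neither pair of neighbours differed beyond its spread.

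The oncogene arrays exceeded control by 4.17, or 18.0-fold, and the double arrays exceeded control by 4.17, or 17.9-fold. Of all probe sets, 99.99% had a smaller difference in oncogene against control. The double arrays exceeded Wt1-null by 3.54, or by 4.80 without Wt1-null replicate 2. These differences chose the gene or share its arrays, so they carry no test. Ranges over 38 settings each were 3.52 to 4.93 in oncogene against control and 3.54 to 4.62 in double against control. In double against Wt1-null the range over 37 settings was 3.01 to 5.03. Every setting reuses the same arrays, and the gene was picked for this rise, so the ranges are description only.

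Wt1 deletion alone left no detectable difference in Agtr2. In limma, which fitted all 45037 probe sets together, Wt1-null minus control was 0.63 ± 0.99 (SE; 95% interval -1.43 to 2.69; adjusted p = 0.846). Without Wt1-null replicate 2 it was -0.63 (95% interval -1.98 to 0.72; limma adjusted p = 0.769), so the sign rests on that array. Double minus oncogene was -0.01 ± 0.91 (SE; 95% interval -1.91 to 1.90; limma adjusted p = 1.0). With all arrays, the intervals leave room for differences of more than 1 in either direction. Without Wt1-null replicate 2, the interval of Wt1-null minus control does so only downward. Both comparisons share control or oncogene arrays with the one Agtr2 was chosen on. The interaction, which is the oncogene difference without Wt1 minus the oncogene difference with Wt1, was -0.63, or 0.62 without Wt1-null replicate 2, and was not tested for this gene.

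Several features of the arrays moved with these groups. Xist, which coats the inactive X chromosome of female cells, was high (above 7) in 5 of 7 double, 0 of 5 oncogene, 2 of 5 Wt1-null and 2 of 5 control arrays. With Xist as a covariate the Agtr2 difference was 4.93 in oncogene against control and 3.58 in double against control. The samples' accession numbers fell into 3 sets, of which 1 held all 7 double, 4 oncogene and 4 control arrays. Within it the differences were 3.94 and 4.25. All 5 Wt1-null arrays lay in the other sets, with 1 oncogene and 1 control array, so no set held both double and Wt1-null arrays. The mean level of the 7 smooth muscle and pericyte markers was 9.28 to 10.24 in double and 9.33 to 10.14 in oncogene arrays, against 10.11 to 10.92 in Wt1-null and 10.02 to 10.58 in control arrays. The part of these markers in the Agtr2 difference was not tested.

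The promoter windows of Agtr2 and of Ace are shown because these were the members with higher levels in cells with the oncogene. They are the 250 bases before each RefSeq start, in mouse build GRCm38.p6, both on the plus strand, with capitals for motif matches. Agtr2 is chrX:21484374-21484623 and Ace, in its first listed window, is chr11:105967698-105967947.
Agtr2: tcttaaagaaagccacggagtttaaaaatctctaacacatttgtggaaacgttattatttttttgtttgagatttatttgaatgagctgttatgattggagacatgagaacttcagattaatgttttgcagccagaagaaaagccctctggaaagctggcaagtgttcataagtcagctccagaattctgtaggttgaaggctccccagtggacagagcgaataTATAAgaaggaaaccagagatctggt
Ace: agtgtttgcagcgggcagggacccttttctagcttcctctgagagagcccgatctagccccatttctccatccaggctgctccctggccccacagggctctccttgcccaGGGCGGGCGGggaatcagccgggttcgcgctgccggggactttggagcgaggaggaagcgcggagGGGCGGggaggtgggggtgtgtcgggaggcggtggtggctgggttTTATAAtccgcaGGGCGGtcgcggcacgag
The motifs searched on both strands were TATAA, the AP-1 motif TGANTCA, the ETS motif CCGGAAG and the GC box GGGCGG, and TATAA on the opposite strand overlaps itself in TTATAA. The Agtr2 window held 1 TATAA match, 26 bases before the start, and no match to the others. Its GC content was 38.4%, against a median of 52.4% over 32851 mouse windows. The Ace window held TATAA matches on both strands from 30 bases before the start and 4 GGGCGG matches, at a GC content of 67.2%. Of all windows, 22.8% held TATAA, 32.7% GGGCGG, 6.75% TGANTCA and 6.91% CCGGAAG. None of the 5 member windows available, those of Agtr2, Agtrap, Ace (2 windows) and Agt, held TGANTCA or CCGGAAG. These matches describe the letters of the window only.

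Ace, the enzyme that makes angiotensin II, was the other member whose level was higher in cells with the oncogene, by far less than Agtr2. In double arrays the level of probe set 1427034_at ran from 8.07 to 8.63, with a median of 8.50. In oncogene arrays it was 7.95, 8.23, 8.73, 8.43 and 8.40. In Wt1-null arrays it was 7.89, 8.0, 7.24, 7.59 and 7.54, and in control arrays 7.44, 7.99, 7.57, 7.57 and 7.70. Every double array lay above every Wt1-null and control array, whereas oncogene replicate 1 fell below control replicate 2.

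By group this probe set averaged 8.38 ± 0.23 in double (SD, n = 7), 8.35 ± 0.28 in oncogene, 7.65 ± 0.30 in Wt1-null and 7.65 ± 0.21 in control arrays (SD, n = 5 each). It rose by 0.69 ± 0.16 (SE) in oncogene against control, a fold of 1.62 (95% interval of the log2 difference 0.37 to 1.02; limma adjusted p = 0.0338). The exact two-sided permutation test over these arrays gave p = 0.0159. It rose by 0.73 ± 0.15 (SE) in double against control, a fold of 1.65, with groups that did not overlap (limma adjusted p = 0.00784), and such separation was seen for the 1.83% given above. The exact permutation p was 0.00126, the smallest that 7 against 5 arrays can give.

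The second Ace probe set, 1451911_a_at, ran from 8.32 to 8.90 in double arrays, with a median of 8.60. In oncogene arrays it was 8.39, 8.27, 8.66, 8.89 and 8.60. In Wt1-null arrays it was 8.17, 8.53, 7.95, 8.09 and 8.16, and in control arrays 7.75, 8.44, 8.09, 8.35 and 7.99. All groups overlapped here, the double and oncogene arrays lying mostly above the others. It rose by 0.51 ± 0.13 (SE) in double against control (limma adjusted p = 0.0346), a fold of 1.43. In oncogene against control the difference of 0.44 was not called (limma adjusted p = 0.158). Over the 22 arrays both Ace probe sets moved together (r = 0.87, and r = 0.69 for deviations from the group means), as a description of arrays that share groups.

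Of the 6 probe sets of Agtr1a, Agtrap, Ace and Agt, 1 was called in oncogene against control and it was higher, where 0.633% of all probe sets were called higher. In double against control 2 were called, both of Ace and both higher, where 2.17% of all probe sets were called higher. The 1427034_at call in oncogene against control was lost without any of control replicates 1, 3, 4 and 5 or oncogene replicates 3, 4, 5 and 6, with limma adjusted p up to 0.0990, while the difference stayed between 0.60 and 0.79. The 1451911_a_at call in double against control was lost without control replicate 1, 3 or 5 or double replicate 5, 6 or 7, with limma adjusted p up to 0.0988. The 1427034_at call in double against control held under all 36 settings. Within the accession set that held 3 of the groups, the 1427034_at differences were 0.74 in oncogene against control and 0.67 in double against control, and with Xist as a covariate 0.73 and 0.70. For 1451911_a_at the double against control call was lost in both, at 0.42 within the set (limma adjusted p = 0.126) and 0.46 with Xist (limma adjusted p = 0.0621). Of the 7 smooth muscle and pericyte markers, Myh11, Acta2, Cnn1 and Tagln had lower means in both double and oncogene arrays than in control arrays, and Rgs5 and Cspg4 had higher ones. The part of these markers in the Ace differences was not tested.

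Against Wt1-null, which also received Cre, the double arrays were higher by 0.73 in probe set 1427034_at, with no overlap, as for 0.480% of all probe sets, and by 0.46 in 1451911_a_at. Neither was called (limma adjusted p = 0.0776 and 0.168), and none of the 6 probe sets was, where 0.00666% of all probe sets were. At an unadjusted p below 0.05 in limma there were 3 of the 6, where 13.0% of all probe sets were. Without Wt1-null replicate 2 both Ace probe sets were called, at 0.82 (limma adjusted p = 0.00469) and 0.54 (limma adjusted p = 0.0324), where 3.77% of all probe sets were. With the accession set as a fixed block the differences from Wt1-null were smaller, at 0.32 (limma adjusted p = 0.828) and 0.09 (limma adjusted p = 0.982), and with the set as a random block they were 0.59 and 0.33. Since no set held both groups, a block rests on the few oncogene and control arrays outside the main set, and set and group cannot be told apart directly.

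No Ace difference with Wt1 deletion was called: Wt1-null minus control was -0.004 and 0.06, and double minus oncogene 0.03 and 0.07. The 95% intervals of the 1427034_at differences were -0.33 to 0.32 and -0.27 to 0.34. With the accession set as a fixed block Wt1-null minus control was 0.30 (limma adjusted p = 0.697) and 0.33 (limma adjusted p = 0.625).

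**Figure D2:**
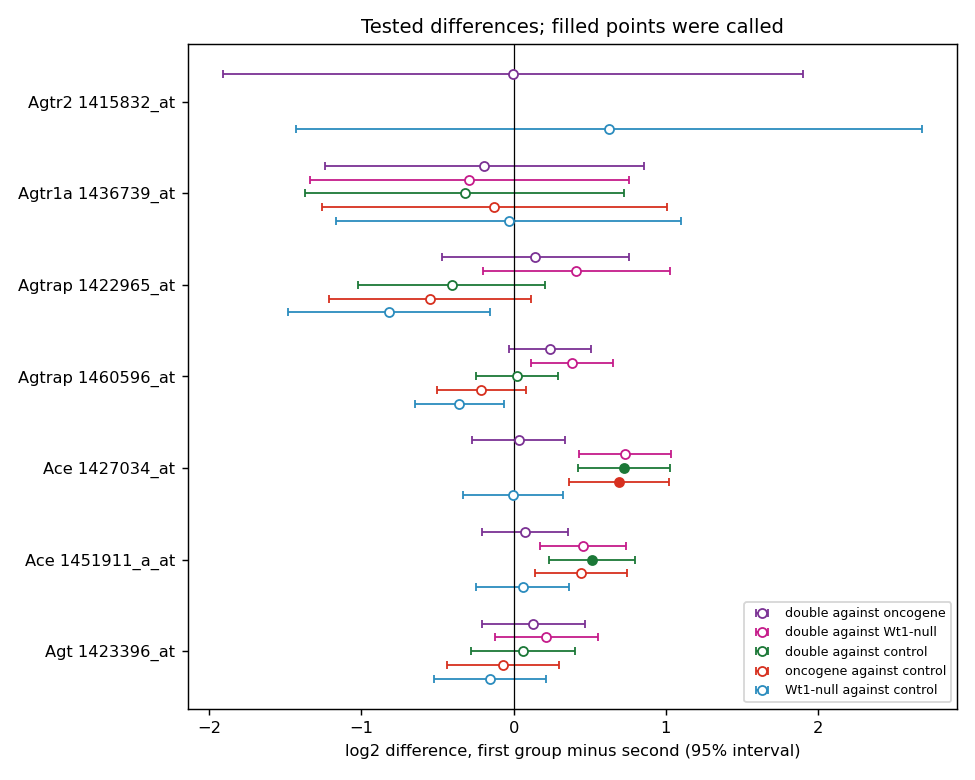
Log2 differences (first group minus second) of each probe set in the comparisons tested, with 95% intervals, filled where called at an adjusted p below 0.05. Only Ace has filled points: 1427034_at at 0.69 and 0.73 and 1451911_a_at at 0.51. For Agtr2 only the comparisons of Wt1 deletion are drawn.

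Within groups, Ace did not follow Agtr2 array by array. The oncogene array with the highest Agtr2 level, replicate 1 at 13.30, had the lowest Ace 1427034_at level of its group, 7.95. That array was the only oncogene array outside the main accession set. Double replicate 4 had the lowest Agtr2 level of its group, 10.62, and the highest Ace level, 8.63. It also had the lowest mean correlation with the other arrays (r = 0.94). Wt1-null replicate 2 was high in both genes for its group, at 13.51 for Agtr2 and 8.0 for Ace. For deviations from the group means, r between Agtr2 and Ace 1427034_at was 0.07 over all 22 arrays and -0.40 without Wt1-null replicate 2, given as a description. For 1451911_a_at these values were 0.04 and -0.50.

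**Figure D3:**
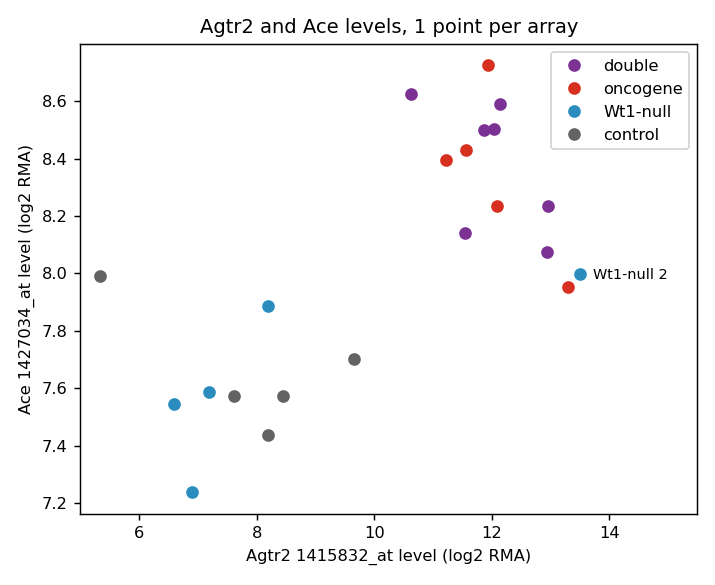
Ace 1427034_at level against Agtr2 level (both log2 RMA), 1 point per array, coloured by group. Double and oncogene arrays lie above 10.62 for Agtr2 and at 7.95 or more for Ace, with Wt1-null replicate 2 beside them at 13.51 and 8.0.

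Agtr1a, the main type 1 receptor gene of mice on chromosome 13, varied between arrays, and no difference between groups was called. The level of probe set 1436739_at ran from 6.66 to 9.94 in double arrays, with a median of 8.06. In oncogene arrays it was 8.40, 7.31, 8.74, 9.29 and 8.84. In Wt1-null arrays it was 8.48, 7.93, 8.27, 8.23 and 10.16, and in control arrays 8.12, 7.85, 9.06, 8.60 and 9.59. All groups overlapped, and Wt1-null replicate 5 had the highest level and double replicate 5 the lowest.

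Group means of Agtr1a were 8.32 ± 1.13 in double (SD, n = 7), 8.52 ± 0.75 in oncogene, 8.61 ± 0.89 in Wt1-null and 8.65 ± 0.70 in control arrays (SD, n = 5 each). The 5 differences between groups lay between -0.32 and -0.03, and none was called. Oncogene minus control was -0.13 (95% interval -1.26 to 1.0; limma adjusted p = 0.951). Differences of the size seen for Ace lie inside that interval, so they were not detectable for Agtr1a with these arrays.

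Agtrap, the receptor-associated protein gene on chromosome 4, had its lowest mean in Wt1-null arrays in both of its probe sets. The level of 1422965_at ran from 7.45 to 9.18 in double arrays, with a median of 7.82. In oncogene arrays it was 8.04, 7.52, 9.03, 7.46 and 7.86. In Wt1-null arrays it was 8.09, 7.52, 7.64, 7.60 and 7.73, and in control arrays 7.93, 8.55, 8.86, 8.46 and 8.86. Among control arrays only replicate 1 lay below the highest Wt1-null array, and double replicates 1 and 4 and oncogene replicate 4 were the highest of their groups. The means were 8.13 ± 0.67 in double (SD, n = 7), 7.98 ± 0.63 in oncogene, 7.72 ± 0.22 in Wt1-null and 8.53 ± 0.38 in control arrays (SD, n = 5 each).

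The second Agtrap probe set, 1460596_at, averaged 8.08 ± 0.24 in double (SD, n = 7), 7.84 ± 0.22 in oncogene, 7.70 ± 0.18 in Wt1-null and 8.05 ± 0.25 in control arrays (SD, n = 5 each). Wt1-null minus control was -0.82 for 1422965_at and -0.36 for 1460596_at. Neither was called (limma adjusted p = 0.376 and 0.378), although exact two-sided permutation tests of these probe sets alone gave p = 0.0159 and p = 0.0397. Control replicate 1, the only control array to share an accession set with Wt1-null arrays, read 7.93 and 7.63. Wt1-null arrays ran from 7.52 to 8.09 and from 7.48 to 7.94. The remaining control arrays, all of another set, ran from 8.46 to 8.86 and from 8.07 to 8.28. Set and group cannot be told apart here. None of the 6 probe sets was called in Wt1-null against control, where 0.0422% of all probe sets were, and the 2 of Agtrap had an unadjusted p below 0.05 in limma, as did 11.0% of all probe sets.

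Double minus Wt1-null was 0.41 and 0.38 for the Agtrap probe sets (limma adjusted p = 0.577 and 0.215). The interaction was 0.96 and 0.59 (limma adjusted p = 0.654 for both). No accession set held both double and Wt1-null arrays, and only 1 control array shared a set with Wt1-null arrays. Set and group therefore cannot be told apart in these Agtrap values. None of the 6 probe sets was called in the interaction, where 0.00888% of all probe sets were, and the 2 of Agtrap had an unadjusted p below 0.05 in limma, as did 7.52% of all probe sets. Deviations of the Agtrap probe sets from their group means went together (r = 0.76 over 22 arrays, as a description).

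Agt, the precursor gene on chromosome 8, showed no difference between groups that was called. In double arrays the level of probe set 1423396_at ran from 6.70 to 7.93, with a median of 6.84. In oncogene arrays it was 7.07, 6.84, 6.76, 7.03 and 6.79. In Wt1-null arrays it was 6.83, 7.07, 6.71, 6.83 and 6.62, and in control arrays 6.79, 7.05, 7.29, 6.97 and 6.74. The groups overlapped, and double replicate 4 was the highest array. Its differences lay between -0.15 and 0.21 and oncogene minus control was -0.07 (95% interval -0.44 to 0.30; limma adjusted p = 0.911).

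None of the 6 probe sets was called in double against oncogene, the comparison of Wt1 deletion between groups that carry the oncogene. There 0% of all 45037 probe sets were called by limma, with 1587 (3.52%) at an unadjusted p below 0.05, and 0 of the 6 at that level.

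**Figure D4:**
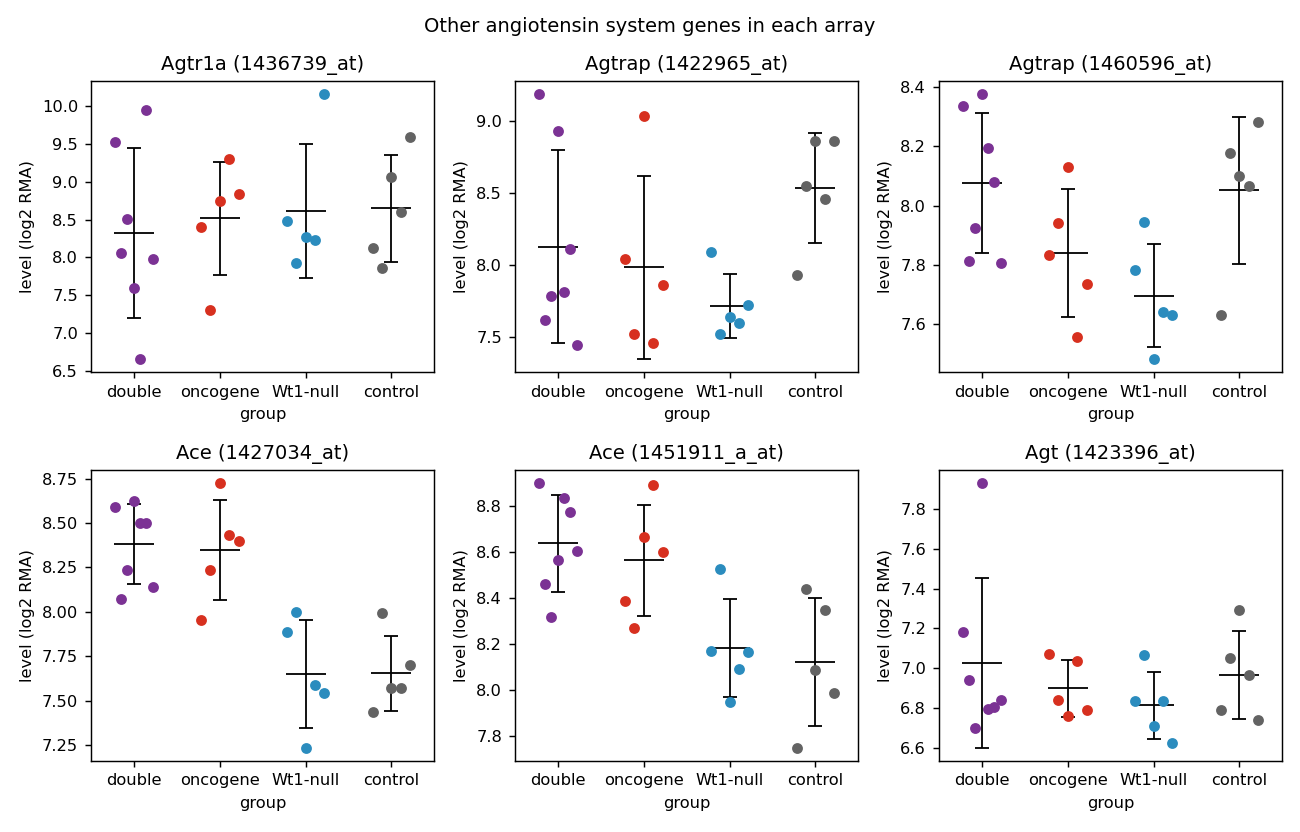
Levels (log2 RMA) of the probe sets of Agtr1a, Agtrap, Ace and Agt in each array, by group, with bars for the group mean and SD. The double arrays of Ace 1427034_at, between 8.07 and 8.63, lie above all Wt1-null and control arrays, and the groups overlap for the other probe sets.

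A wider list of 35 renin-angiotensin genes, holding other peptidases, receptors, receptor partners and the steroid arm, had 31 measured. In double against control 1 was called higher and 1 lower, beside 2.17% and 1.83% of all probe sets. Ctsd, the lysosomal protease cathepsin D, which can cut angiotensinogen, rose by 0.88 ± 0.17 (SE) to 13.65 in double arrays, against 12.77 in control arrays (limma adjusted p = 0.00574). Prep, prolyl endopeptidase, which trims angiotensin peptides, fell by 0.56 on the log2 scale to 10.48 in double arrays, against 11.05 in control arrays (limma adjusted p = 0.0176). Every double array lay above every control array for Ctsd, as for 1.83% of all probe sets.

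No gene of this list was called in the other comparisons, though without Wt1-null replicate 2 Ctsd was also called in oncogene against control (0.53, limma adjusted p = 0.0277) and in double against Wt1-null (0.84, limma adjusted p = 0.000803). Double and Wt1-null arrays shared no accession set, so set and group cannot be told apart in that last difference. Mme, the peptidase neprilysin, was the one gene of the list past a log2 difference of 1, without a call: its mean was 10.17 in double and 10.48 in oncogene arrays, against 9.15 in control arrays. These differences of 1.02 and 1.32 were not called (limma adjusted p = 0.494 and 0.467). The list's median difference was -0.03 in oncogene against control and 0.01 in double against control, beside -0.02 over all probe sets in each.

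Of 18 genes known as induced by angiotensin II, 16 were measured, and 1 was called, in double against control, where 2.17% of all probe sets were called higher. Fn1, fibronectin, rose by 0.91 to 14.22 in double arrays, against 13.31 in control arrays (limma adjusted p = 0.0330). The list's median difference was 0.47 in Wt1-null against control, and 0.14 both for the oncogene arrays and for the double arrays against control, beside -0.03 and -0.02 over all probe sets. It was -0.33 in double against Wt1-null, with 12 of 16 lower, and -0.71 in the interaction, with 13 of 16 below 0 and none called, beside 0.01 and 0.03 over all probe sets. No accession set held both double and Wt1-null arrays, and only 1 control array shared a set with Wt1-null arrays. Set and group therefore cannot be told apart in the medians that involve Wt1-null arrays.

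Of 23 other vasoactive peptide receptors and ligands, 22 were measured, and 2 were called, both higher in double against control, beside the same 2.17%. Npr2, the receptor of C-type natriuretic peptide, rose by 1.16 to 10.94 in double arrays, against 9.79 in control arrays (limma adjusted p = 0.00787). Ramp3, which partners the calcitonin receptor-like receptor, rose by 2.21 to 10.07 in double arrays, against 7.85 in control arrays (limma adjusted p = 0.0284). Fn1, Npr2 and Ramp3 were named after their values were seen. Without Wt1-null replicate 2 these calls held, Calcrl, the receptor that Ramp3 partners, was called at 1.24 (limma adjusted p = 0.0440), and Npr2 (1.10, limma adjusted p = 0.00522) and Ramp3 (2.06, limma adjusted p = 0.0298) were also called in double against Wt1-null, where 3.77% of all probe sets were. For differences from Wt1-null, set and group again cannot be told apart.

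The genes whose levels followed Agtr2 most closely over the 22 arrays, among 16329 genes, were Slc14a1, a urea transporter (r = 0.95), Gpr85, an orphan receptor (r = 0.94), and Cd34, a surface sialomucin (r = 0.93). The sodium and myo-inositol transporter Slc5a3 and the insulin-like growth factor-binding protein Igfbp3 came next (r = 0.93 each). Slc14a1 averaged 12.10 in double and 12.43 in oncogene arrays, against 8.35 in Wt1-null and 7.64 in control arrays, and stood at 12.57 in Wt1-null replicate 2. These correlations include the gap between groups. For deviations from the group means, r was 0.86 for Slc14a1, 0.86 for Gpr85, 0.82 for Cd34, 0.85 for Slc5a3 and 0.90 for Igfbp3. Leaving out Wt1-null replicate 2, these values were 0.69, 0.72, 0.49, 0.72 and 0.79 in the same order.

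The genes that ran most opposite to Agtr2 were Csrp1, a LIM-domain protein (r = -0.94), Msrb1, a methionine sulfoxide reductase (r = -0.93), Cyp2d10 (r = -0.92), the actin-binding calponin Cnn1 (r = -0.91) and the keratin Krt7 (r = -0.90). Cyp2d10 read 4.30 to 4.52 in all 4 group means, at the level of the Y-linked background. Cnn1 averaged 9.55 in double and 10.08 in oncogene arrays, against 12.24 in Wt1-null and 12.26 in control arrays.

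With the group means removed, the closest genes were Fam219b (r = 0.92), Crebrf, a regulator of CREB3 (r = 0.90), Igfbp3 (r = 0.90), the stress protein Sesn3 (r = 0.90) and the glutathione transferase Mgst1 (r = 0.89). Without Wt1-null replicate 2 these values were 0.82 for Fam219b, 0.79 for Crebrf, Igfbp3 and Sesn3, and 0.74 for Mgst1. The correlations are descriptions over arrays that share groups.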

How the data were processed

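The deposited values are log2 levels that the authors made with the RMA method in Affymetrix Expression Console, per the submitters' processing notes, and the design text says likewise. RMA subtracts background, gives all arrays a common distribution and summarises each probe set, which compresses differences near the floor. Its version is not given in the sources used here. Of 6 oncogene arrays named in the design text, 5 were used here, and the oncogene's name is not reported here.

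Of 45101 probe sets, 64 array controls were left out. The platform annotation named 1 gene for 34945, several for 932 and none for 9160. Group means of all 22 arrays were fitted with limma version 3.58.1 (lmFit and eBayes) in R version 4.3.3, with Benjamini-Hochberg adjustment over 45037 probe sets and calls at an adjusted p below 0.05. Genes of other lists were taken by their probe set with the highest mean. The fit was tested on simulated data. No scanner files, detection calls or scan dates were used here, and precision is limited by the number of arrays.

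The members and lists were chosen with earlier results of these data known. All probe sets of the members were named. Of the renin-angiotensin list, genes called or past a log2 difference of 1 were named, and for likeness to Agtr2 the 5 highest, the 5 lowest and the 5 highest over deviations from group means, leaving out clone names.

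The alternatives were 1 row per gene, a filter on dim probe sets, renewed quantile normalization, median centring, another variance model, array weights, only the groups compared, replicate and accession-set blocks, an Xist covariate, and arrays left out singly or together. Another setting averaged Wt1-null replicates 3 and 4. Leaving out Wt1-null 2, oncogene 4 and double 4 together was chosen after seeing the data.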

Additional observations from a re-analysis of the deposited data

Results flagged for a closer look

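Of 28 combinations of probe set and group examined, 3 held an array far from the rest of its group, and chance alone marks about 1 in 20. Agtr2 in Wt1-null replicate 2 stood at 13.51, and the next array of that group at 8.19. The same array was the one closest to double replicate 2 over all probe sets. Agtr1a in Wt1-null replicate 5 stood at 10.16, with the next array at 8.48. Agt in double replicate 4 stood at 7.93, with the next array at 7.18. Double replicate 4 was also the array with the lowest mean correlation with the others (r = 0.94).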

How the results depend on the processing

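The number of arrays limits what could be detected. Of the 6 probe sets of Agtr1a, Agtrap, Ace and Agt, 1 was called in oncogene against control. That count was 0 with 1 row per gene by highest mean, renewed quantile normalization, a trended and robust variance, the replicate block, and both arrays numbered 4 left out. It was 4 with array weights, and 0 to 1 with single arrays left out.

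In double against control the 2 calls became 1 with 1 row per gene (highest mean or mean of probe sets), quantile normalization, the trended variance, only the groups compared, the replicate block, the fixed accession-set block, the Xist covariate, and within 1 accession set. Single arrays left out gave 1 to 2. With 1 row per gene there is 1 row for Ace. The cause was not tested for the other settings.

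Array weights also raised the calls over the whole table, to 12.9% of probe sets for oncogene, 18.8% for Wt1-null and 24.0% for double arrays against control, 10.6% for double against Wt1-null and 2.49% for the interaction. Among the 6 they called 2 probe sets in Wt1-null against control, both of Agtrap and both lower (-0.92 and -0.48), 3 in double against Wt1-null and, for the interaction, 1. In oncogene against control they called both Ace probe sets higher and both Agtrap probe sets lower (-0.81 and -0.34). They also called Agtrap 1422965_at lower in double against control (-0.78, limma adjusted p = 0.00589). In double against Wt1-null the 0 calls became 2 without Wt1-null 2, oncogene 4 and double 4 together, and 0 to 2 without single arrays, with the 2 reached without Wt1-null replicate 2.

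Uncalled Agtr2 differences changed sign. Wt1-null minus control was -0.30 with array weights, -0.18 with the fixed set block and -0.63 with the 3 arrays left out, and -0.63 to 1.10 with single arrays left out. Double minus oncogene was 0.0019 after quantile normalization, 0.43 with array weights, 0.52 and 0.19 with the set as a fixed and a random block, 0.20 with both arrays numbered 4 or the 3 arrays left out and 0.31 within 1 set, and -0.21 to 0.31 with single arrays left out. The interaction was 0.73 with array weights, 0.71 with the fixed set block and 0.84 with the 3 arrays left out, and -1.10 to 0.62 with single arrays left out.

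Over the whole table, calls ranged over all settings from 125 to 5795 in oncogene against control, 3 to 8482 in Wt1-null against control, 832 to 10791 in double against control, 0 to 4785 in double against Wt1-null and, for the interaction, 0 to 1121. Of 28 pairs of arrays with the same number in different groups, 12 correlated above 0.1 in their deviations (-0.44 to 0.78), so the numbers were not taken to pair samples.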
